A study of Mus musculus with 12 samples.

Results

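The genes described here are 40 genes of the synaptic vesicle and of the machinery that releases and recovers it, out of 54532 genes in the deposited transcript tables. They were chosen by gene symbol, and the values of each gene's transcripts were summed in every one of 12 hippocampal RNA-seq libraries from mice. By role they were 11 vesicle membrane proteins, 3 synapsins and synucleins, 9 synaptotagmins, 7 SNAREs and SNARE regulators, 4 Rab GTPases and 6 endocytosis proteins. The libraries came from 3-month-old mice in 4 groups of 3: females with a conditional knockout of Atrx (cKO females), control females, cKO males and control males. Atrx, on the X chromosome, encodes a chromatin remodeller. The sources used here do not give the Cre driver, the deleted exons or the genotype of the controls. The labels call every sample hippocampal cells, and the series text speaks of pairs of mice without saying which libraries form a pair. The p-values measure the spread from library to library, which is that between animals only if each library is 1 mouse.

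A synaptic vesicle is filled with transmitter by vesicular transporters, held in a cluster by synapsins, and brought to the release site by Rab proteins. It fuses when the vesicle SNARE synaptobrevin (Vamp) zips together with the plasma membrane SNAREs syntaxin and SNAP-25, a step that complexin holds ready and that calcium sets off through synaptotagmin. The alpha and beta SNAP proteins (Napa, Napb) and the ATPase NSF then take the SNARE complex apart, and dynamin, amphiphysin, endophilin (Sh3gl2), synaptojanin and AP180 (Snap91) recover the membrane. In the hippocampus, most of this machinery belongs to glutamatergic pyramidal and granule neurons, and the interneurons carry it too.

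Values are on 1 of 2 scales. The deposited FPKM (fragments per kilobase of transcript, relative to library size), summed per gene, serves for levels between genes. For differences between groups, corrected FPKM is used: bases assigned to a gene per exon length, less the median over 1415 olfactory and vomeronasal receptor genes of the same library, then scaled between libraries. A gene's corrected value lies below its deposited sum where its exons together are longer than its expressed transcripts, so the 2 scales are not compared. That receptor background, which stands for reads outside expressed genes, was 0.309 to 2.26 FPKM in cKO females, 0.0875 to 0.604 FPKM in control females, 0.0181 to 0.289 FPKM in cKO males and 0.00683 to 0.0282 FPKM in control males. It did not overlap between the sexes within a genotype, so sex and background cannot be told apart in these libraries. Mapped depth ran from 1.16 to 8.64 Gb, lowest in cKO female 2. Atrx had 30.97, 36.1 and 38.2 deposited FPKM in cKO females, against 55.6, 58.8 and 63.6 in control females. In cKO males Atrx had 34.2, 32.3 and 36.5 FPKM, against 46.9, 40.2 and 42.1 in control males. The groups did not overlap, and the exact two-sided permutation test gave p = 0.005 with labels permuted within both sexes and p = 0.1 within either sex, the smallest p-values that these designs allow. The hippocampal genes Wfs1 (CA1) and Prox1 (dentate gyrus) were present in all 12 libraries, at lowest corrected FPKM of 4.66 and 5.32. Of 10 thalamus and habenula markers, Gbx2 was at 0 in 6 libraries, Pou4f1 in 7 and Lef1 in 1, and the other 7 were above 0 in all 12. The highest of these was Calb2, also known from hippocampal interneurons, at 10.6 to 24.4 corrected FPKM, followed by Ntng1 at 2.76 to 6.28 FPKM.

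All 40 genes were expressed, over a wide range. In control males, the group of lowest background, Snap25 (plasma membrane SNARE SNAP-25) stood highest at 703 ± 61.8 deposited FPKM (SD, n = 3), and its libraries lay above every library of the next gene. Napb (beta-SNAP, a SNARE disassembly adaptor) followed at 193 ± 15.5 FPKM and Syp (synaptophysin, an abundant vesicle membrane protein) at 171 ± 23.5 FPKM, with overlapping libraries. Cplx2 (complexin 2) at 138 ± 4.57 FPKM and Sv2b (a vesicle glycoprotein) at 123 ± 11.1 FPKM came next and touched at their edges. Below them, Dnm1 (dynamin 1, which cuts endocytic vesicles free), Rab3a (a vesicle GTPase) and Syt11 (a synaptotagmin that does not bind calcium) had 73.4 ± 21.1, 62.4 ± 4.94 and 50.4 ± 5.23 FPKM. The lowest 4 were Syt12 at 4.58 ± 0.338 FPKM, Sv2c at 3.16 ± 1.5, Rab3b at 2.48 ± 0.419 and Syt2 at 2.22 ± 0.622 FPKM. The libraries of Sv2c, Rab3b and Syt2 overlapped one another, so their order is not resolved.

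**Figure D1:**
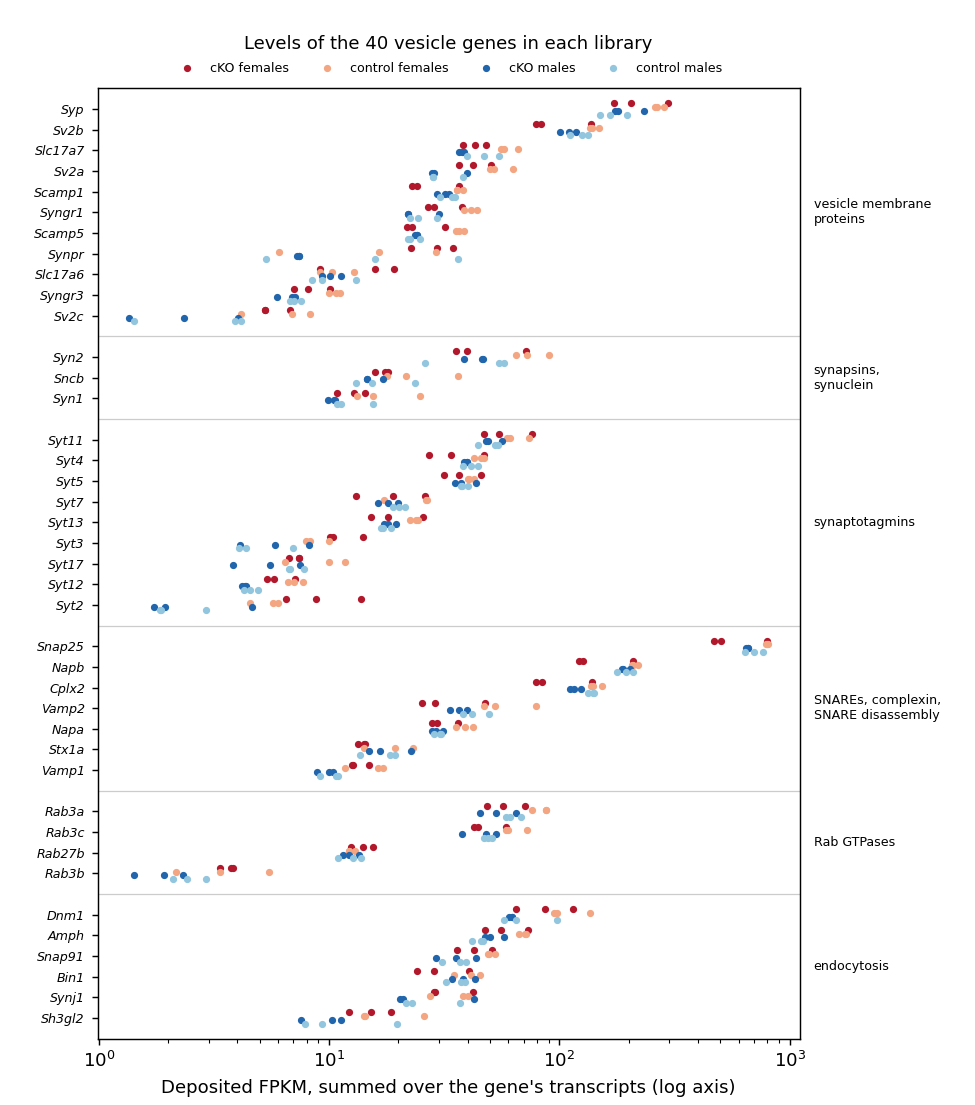
Deposited FPKM, summed over the transcripts of each gene, on a log axis for the 40 genes grouped by role, with 1 point per library and the 4 groups in 4 colours. Snap25 lies above all other genes in every library, and cKO females 2 and 3 (the lower pair of dark red points) lie under the other libraries for abundant genes such as Snap25, Napb and Cplx2 on this uncorrected scale.

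Paralogs stood at different levels. Vamp2, the main synaptobrevin of forebrain synapses, had 43.2 ± 5.73 deposited FPKM in control males, and Vamp1 had 10.3 ± 1.01 FPKM. Of the vesicular glutamate transporters, Slc17a7 (VGLUT1) had 47.1 ± 7.43 FPKM and Slc17a6 (VGLUT2, known from subcortical neurons) had 10.3 ± 2.5 FPKM. The Sv2 glycoproteins ran from Sv2b to Sv2a (31.6 ± 5.63 FPKM) and Sv2c. Syn2 (synapsin 2) at 46.1 ± 17.5 FPKM was above Syn1 (synapsin 1) at 12.5 ± 2.63 FPKM, and Rab3c at 49.2 ± 1.95 FPKM lay below Rab3a in all 3 libraries of the group.

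The tables list 206 transcripts for these genes, and for all 40 the leading transcript by mean FPKM was protein-coding. In 15 genes it held over 90% of the summed FPKM on average: Snap25's ENSMUST00000028727 held 92.5% to 96.3% across libraries and the only transcripts of Cplx2, Syt4 and Syt13 held all of it. In 7 genes it held under 50%, and some of these switched between libraries of 1 group. For Snap91, ENSMUST00000036347 had 42.4 and 40.1 FPKM in control females 1 and 2 and 0.73 in control female 3, where ENSMUST00000074468 had 40.5 FPKM against 1.29 and 1.17 in control females 1 and 2. The gene sum hides this switch, at 52.5, 49.1 and 49.7 deposited FPKM in control females. In cKO female 2, a 349-base processed transcript (ENSMUST00000223580) made up 25.3 of the 34.4 FPKM of Synpr (synaptoporin, a synaptophysin relative). Synpr also spread most within groups, with a pooled within-group SD of 0.90 on the log2 scale of corrected FPKM, followed by Sh3gl2 (endophilin A1) at 0.49, Rab3b at 0.45 and Syt7 at 0.41. The steadiest were Scamp5 and Napa at 0.06 each, and Snap25 and Syt5 at 0.07 each. The exons of 10 of the genes overlap another gene on the opposite strand, by over 10% of their bases in Syp, Syt4 and Syt12. Since the use of strand in counting is not given, reads of the partner cannot be told apart there.

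The first question of the design is what the loss of Atrx does to these genes in each sex. None of the 40 passed the test in either sex (limma on log2 of corrected FPKM + 0.5, adjusted p under 0.05 over 15098 genes). In cKO against control females, 0.0265% of all genes tested were called higher and 0.0464% lower. The 40 genes had a median log2 difference of -0.05 and all genes one of 0.01. An unadjusted p under 0.05 was found for 6 of the 40 and for 4401 of all 15098 genes. In cKO against control males, 0% of all genes were called higher and 0.00662% lower. The median was -0.07 for the 40 genes and 0.03 for all genes. An unadjusted p under 0.05 was found for 2 of the 40 and for 352 of all 15098 genes. Over the mean of both sexes, 0.0132% of all genes were called higher and 0.0199% lower, none of the 40 among them. Unadjusted, 8 of the 40 and 3053 of all 15098 genes had a p under 0.05 there, and the lowest adjusted p of the 40 was 0.22. The female minus the male effect called 0% of all genes in either direction. Only Scamp5 of the 40, and 931 of all 15098 genes, had an unadjusted p under 0.05. The median SE of the 40 log2 differences within a sex was 0.15. In the same limma test Atrx itself passed in females (-0.88 ± 0.11, adjusted p = 0.019). It did not pass in males (-0.47 ± 0.11, unadjusted p = 0.0013), so the lack of a call in males does not show the lack of a difference.

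**Figure D2:**
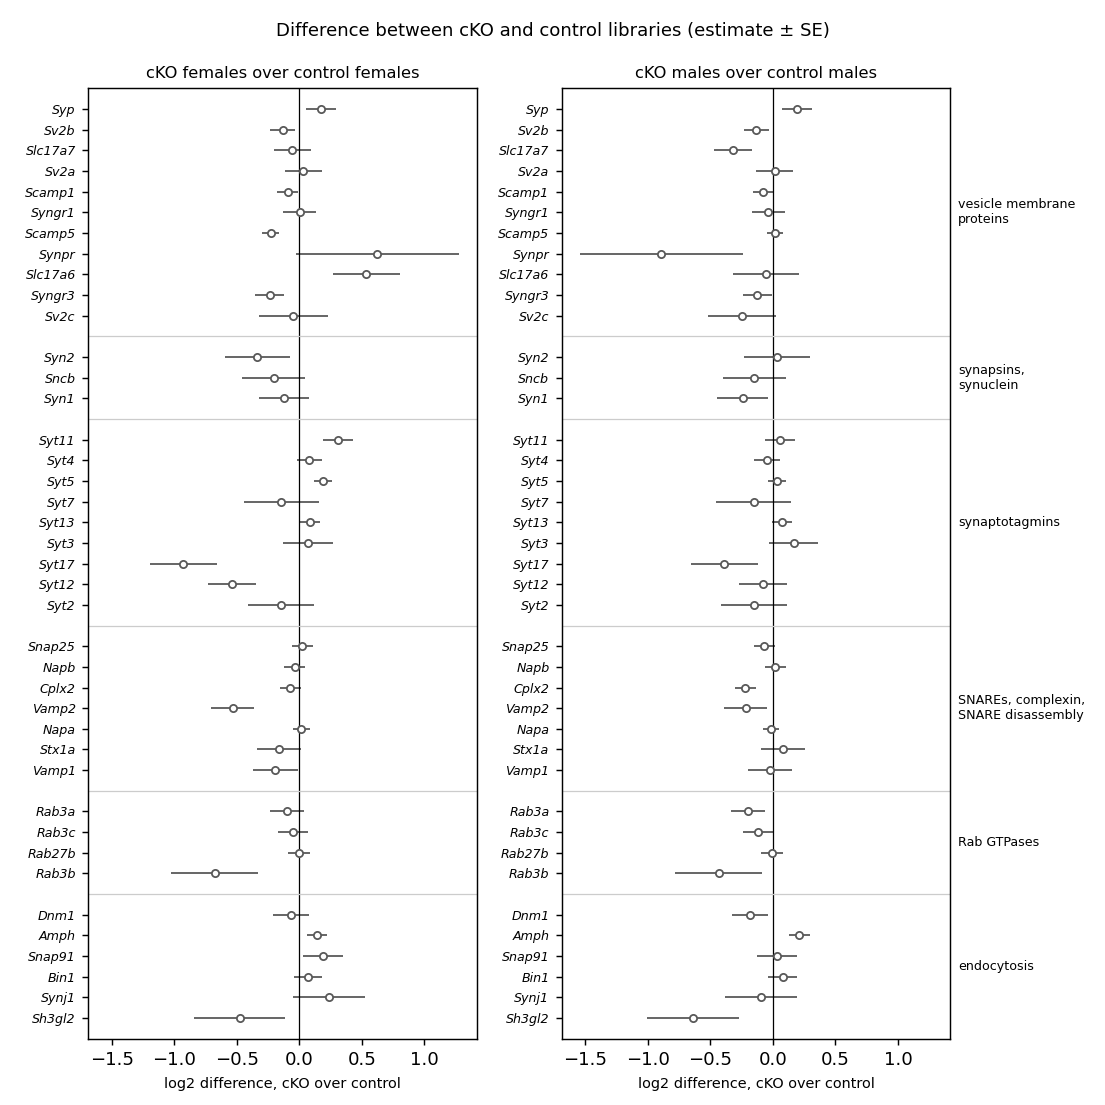
Log2 difference of cKO over control (point) with its SE (bar) for the 40 genes, females in the left panel and males in the right, on corrected FPKM. None of the 40 passed the test in either panel, shown by open points; most values lie between -0.5 and 0.5, and Synpr and Sh3gl2 have the widest bars.

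Among the vesicle membrane proteins, Scamp5 (a secretory carrier protein of vesicle membranes; ENSMUSG00000040722, chromosome 9, 57441327 to 57468060) had the lowest p of the 40 in females. It had 21.9, 20.8 and 22.3 corrected FPKM in cKO females, against 26.2, 23.6 and 26.8 in control females. Every cKO library was below every control library, the log2 difference was -0.23 ± 0.07 (SE) and the adjusted p was 0.12. In males the groups interleaved, with 15.4, 16.2 and 15.8 in cKO males and 15.7, 15.9 and 15.3 in control males, and a log2 difference of 0.02 ± 0.07. The female minus the male effect was -0.24 ± 0.09, adjusted p = 0.59.

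Syngr3 (synaptogyrin 3, a small membrane protein of vesicles) was below its controls in every cKO library of both sexes on corrected FPKM. On deposited FPKM its libraries overlapped in both sexes. It had 8.36, 5.87 and 7.91 corrected FPKM in cKO females, against 8.93, 8.6 and 8.52 in control females. In cKO males it had 5.83, 5.75 and 5.2, against 6.17, 6.38 and 5.89 in control males. The differences were small, -0.24 ± 0.11 in females and -0.13 ± 0.11 in males on the log2 scale, with adjusted p-values of 0.20 and 1.0.

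The transporters did not behave alike. Slc17a7 had 22.2, 31.1 and 27.5 corrected FPKM in cKO females and 30.5, 25.2 and 27.8 in control females, which overlapped. In males it had 16.9, 17.8 and 18.99 in cKO libraries and 21.5, 27.8 and 18.95 in controls, a log2 difference of -0.32 ± 0.15 (adjusted p = 1.0). Slc17a6 had 5.51, 12.02 and 9.91 in cKO females, against 7.73, 5.65 and 4.58 in control females. Only cKO females 2 and 3, the libraries of highest background, stood above the controls, and the log2 difference of 0.54 ± 0.26 had an adjusted p of 0.20. The 10 thalamus and habenula markers summed to 27.3, 27.02 and 33.6 corrected FPKM in cKO females and 30.8, 21.99 and 31.6 in control females, which overlapped, and their part in the value was not tested. In males Slc17a6 was 5.95, 5.73 and 7.37 in cKO libraries and 8.12, 6.31 and 5.53 in controls, with a log2 difference of -0.05 ± 0.26.

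Syp had 130.3, 146 and 127 corrected FPKM in cKO females, against 122, 112 and 122 in control females, and 75.6, 104 and 81.7 in cKO males, against 82.8, 70.2 and 73.7 in control males. The log2 differences of 0.18 ± 0.12 in females and 0.19 ± 0.12 in males had adjusted p-values of 0.34 and 1.0. Sv2a had log2 differences of 0.03 ± 0.15 in females and 0.02 ± 0.15 in males, with 95% intervals of -0.29 to 0.36 and -0.31 to 0.34. Sv2b had 66.2, 60.7 and 66.7 corrected FPKM in cKO females and 68.95, 62.6 and 81.9 in control females, and 53.1, 59.9 and 52.2 in cKO males and 62.4, 57.5 and 60.95 in control males, with overlap in both sexes. The log2 differences of Syngr1, Scamp1, Sv2b and Sv2c ran from -0.13 to 0.01 in females and from -0.25 to -0.04 in males. Sv2c, the lowest of this role, had 2.41, 4.71 and 3.04 in cKO females and 3.91, 3.03 and 3.3 in control females, and 1.93, 1.34 and 0.833 in cKO males and 2.25, 1.27 and 1.54 in control males. Synpr differed by 0.62 ± 0.65 in females and -0.89 ± 0.65 in males, with 95% intervals of -0.82 to 2.07 and -2.34 to 0.55.

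Of the synapsins, phosphoproteins that hold vesicles together, and beta-synuclein, none separated cKO from control libraries in both sexes. Syn1 (ENSMUSG00000037217, chromosome X, 20860511 to 20921004), the synapsin of the X chromosome, had 12.5, 15.98 and 13.04 corrected FPKM in cKO females and 21.3, 11.1 and 14.2 in control females. Its values were 8.66, 9.34 and 9.81 in cKO males, all below the 13.3, 10.1 and 10.05 of control males, by -0.24 ± 0.20 on the log2 scale (adjusted p = 1.0). Syn2 had 33.5, 23.2 and 27.1 in cKO females and 41.2, 29.2 and 35.5 in control females, and 21.4, 22.6 and 19.2 in cKO males and 26.5, 12.3 and 26.4 in control males, with control male 2 far below its group. Sncb (beta-synuclein, a cytosolic protein of terminals) differed by -0.20 ± 0.25 in females and -0.15 ± 0.25 in males.

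The synaptotagmins held the most genes at an unadjusted p under 0.05 in females, 4 of 9, and they pointed both ways. Of all 15098 genes tested, 4401 had such a p in females. Syt17, a synaptotagmin-like protein of the secretory pathway (ENSMUSG00000058420, chromosome 7, 118380717 to 118448222), had 2.61, 1.65 and 1.15 corrected FPKM in cKO females, against 4.58, 2.68 and 4.16 in control females. In cKO males it had 2.64, 2.95 and 1.67, against 3.02, 3.04 and 3.73 in control males. Each cKO library lay below each control library in both sexes. The log2 difference was -0.93 ± 0.27 in females (adjusted p = 0.12), -0.39 ± 0.27 in males (adjusted p = 1.0) and -0.66 ± 0.19 over both (adjusted p = 0.22). Its corrected level in cKO females 2 and 3 is below the background subtracted there, which was 1.98 and 2.26 FPKM before scaling. Before subtraction its deposited FPKM overlapped, at 6.67, 7.41 and 7.44 in cKO females and 11.7, 6.42 and 10.05 in control females.

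Syt12, a synaptotagmin that lacks calcium binding, had 3.68, 1.87 and 2.11 corrected FPKM in cKO females, against 3.54, 4.25 and 3.63 in control females, with only cKO females 2 and 3 below the controls. Its log2 difference was -0.54 ± 0.19 in females (adjusted p = 0.12) and -0.08 ± 0.19 in males. Syt11 went the other way in females, with 58.4, 65.1 and 57.7 in cKO females, all above the 53.9, 44.5 and 48.00 of control females. The log2 difference was 0.31 ± 0.12 (adjusted p = 0.13). In males it was 0.06 ± 0.12, with 35.8, 44.9 and 39.9 in cKO libraries and 37.9, 44.3 and 33.98 in controls. Syt5, a calcium sensor, had 23.8, 24.4 and 27.3 in cKO females, also all above the 22.97, 21.2 and 21.9 of control females, by 0.19 ± 0.07 (adjusted p = 0.13).

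The signs of the Syt11, Syt5 and Slc17a6 values in females turned negative when background was left in and libraries were scaled by median of ratios. The other synaptotagmins stayed closer to their controls. Syt3 had 3.53, 4.62 and 2.68 corrected FPKM in cKO males and 3.99, 2.61 and 2.83 in control males. Syt13 had 16.1, 18.2 and 16.5 in cKO males and 16.3, 16.1 and 15.7 in control males, and their log2 differences in males were 0.17 ± 0.20 and 0.07 ± 0.08. Syt4 differed by 0.08 ± 0.10 in females and -0.05 ± 0.10 in males. Syt7, which senses calcium slowly, differed by -0.14 ± 0.30 and -0.15 ± 0.30, and Syt2, a fast calcium sensor, by -0.15 ± 0.26 and -0.15 ± 0.26.

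Among the fusion proteins, Vamp2 (ENSMUSG00000020894, chromosome 11, 69088490 to 69092384) had the lowest p in females. It had 24.6, 20.1 and 17.4 corrected FPKM in cKO females, against 39.6, 26.1 and 25.7 in control females, with no overlap. The log2 difference of -0.53 ± 0.17 had an adjusted p of 0.12. Without control female 1, whose value is far above the rest, the difference was -0.33. In males Vamp2 had 18.7, 21.1 and 18.3 in cKO libraries and 24.7, 23.04 and 20.1 in controls, a log2 difference of -0.22 ± 0.17 with overlapping libraries. Vamp1 had 3.18, 3.85 and 2.46 in cKO females and 3.99, 2.84 and 4.21 in control females, and 2.66, 2.67 and 2.44 in cKO males and 2.19, 2.95 and 2.83 in control males, which overlapped in both sexes.

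Cplx2 (ENSMUSG00000025867, chromosome 13, 54371349 to 54383917) had the smallest p of the 40 in males. It had 111, 109 and 106 corrected FPKM in cKO males, all below the 117, 134 and 129.9 of control males, a log2 difference of -0.22 ± 0.08 (adjusted p = 1.0). In females its libraries overlapped, at 127, 117 and 127 in cKO and 121, 132 and 137 in control libraries, with a log2 difference of -0.07 ± 0.08. Snap25, Napb and Napa differed by -0.07 to 0.03 on the log2 scale in either sex. Snap25 had 229, 233 and 227 corrected FPKM in cKO females and 218, 218 and 242 in control females, and 184, 194 and 191 in cKO males and 191, 192 and 215 in control males. Its 95% interval was -0.16 to 0.21 in females and -0.25 to 0.12 in males. Napb had 119, 111 and 120.1 in cKO females and 121, 112 and 126 in control females, and 105, 119 and 111 in cKO males and 106, 106 and 119 in control males. The intervals were -0.22 to 0.15 in females and -0.16 to 0.20 in males for Napb, and -0.13 to 0.16 and -0.16 to 0.13 for Napa. Stx1a (syntaxin 1A) differed by -0.16 ± 0.18 in females and 0.08 ± 0.18 in males.

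All 4 Rab genes had log2 differences below 0 in both sexes and none passed. Rab3a had 39.9, 48.2 and 42.1 corrected FPKM in cKO females and 46.9, 40.7 and 52.3 in control females, and 28.8, 37.3 and 26.4 in cKO males and 36.7, 35.99 and 32.6 in control males. The groups overlapped in both sexes, with log2 differences of -0.10 ± 0.13 and -0.20 ± 0.13. Rab3c had 35.2, 35.8 and 38.1 in cKO females and 41.6, 33.5 and 38.3 in control females, and 27.6, 33.1 and 23.3 in cKO males and 28.4, 30.5 and 31.4 in control males, which also overlapped. Rab3b, the lowest Rab, had 2.29, 1.07 and 0.783 in cKO females and 3.83, 1.55 and 2.06 in control females, a log2 difference of -0.67 ± 0.35 with cKO females 2 and 3 below the background subtracted there. In males it had 0.962, 1.11 and 1.88 in cKO libraries and 2.15, 1.98 and 1.59 in controls. Rab27b, which docks secretory vesicles, had the differences closest to 0 of this role, with 95% intervals of -0.20 to 0.20 in females and -0.21 to 0.19 in males.

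Of the endocytosis proteins, Amph (amphiphysin, which brings dynamin to clathrin-coated pits; ENSMUSG00000021314, chromosome 13, 18948205 to 19150921) was the only one of the 40 above its controls in every cKO library of both sexes. It had 45.2, 44.4 and 48.1 corrected FPKM in cKO females, against 42.1, 40.8 and 41.7 in control females. In cKO males it had 32.1, 36.3 and 29.2, against 26.8, 27.9 and 29.03 in control males. The log2 differences were 0.14 ± 0.08 in females (adjusted p = 0.26), 0.21 ± 0.08 in males (adjusted p = 1.0) and 0.18 ± 0.06 over both (adjusted p = 0.22). Both turned negative with background left in and median-of-ratios scaling, and the female value also on deposited FPKM.

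Its partner Dnm1 differed by -0.06 ± 0.15 in females and -0.18 ± 0.15 in males. Sh3gl2 had 1.61, 1.99 and 1.84 in cKO males and 2.31, 6.43 and 1.87 in control males, a log2 difference of -0.64 ± 0.37 (adjusted p = 1.0). Without control male 2, where the transcript ENSMUST00000030212 had 13.6 deposited FPKM, it was -0.16. In females it had 2.42, 2.39 and 1.53 in cKO libraries, just below the 4.54, 2.6 and 2.45 of controls. Bin1 (amphiphysin 2), Synj1 (synaptojanin 1) and Snap91 differed by 0.07, 0.24 and 0.19 in females and by 0.08, -0.09 and 0.03 in males. For Bin1 and Syt7 the deposited tables list 2 and 8 transcripts, against 6 and 15 in GENCODE M21, so their values cover part of the annotated transcripts.

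Overlap of cKO and control libraries was counted over the 40 genes on corrected FPKM. There was none, in the same direction in both sexes, for 1 higher gene (Amph) and 2 lower genes (Syngr3 and Syt17). Among all genes tested this held for 1.54% in the higher and 0.96% in the lower direction. Within females, 4 of the 40 were higher and 5 lower in every cKO library, where the shares of all genes were 10.2% and 7.56%. Within males, 1 was higher and 5 were lower, where the shares of all genes were 7.39% and 4.69%. On deposited FPKM, Syngr3 and Syt17 overlapped in both sexes and Amph overlapped in females.

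**Figure D3:**
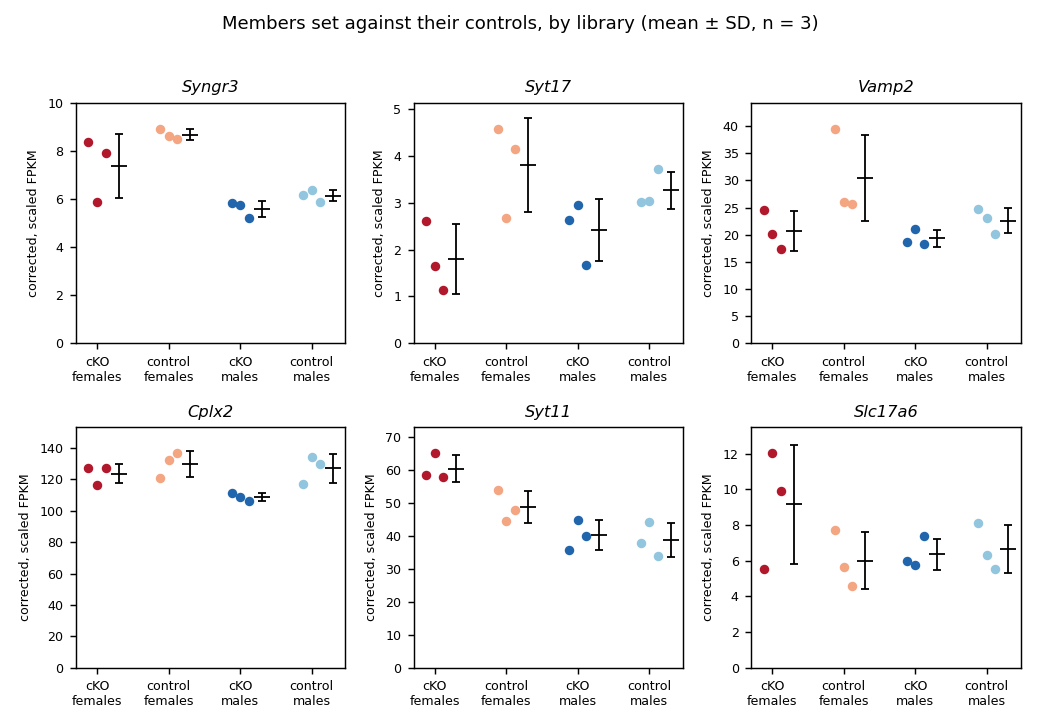
Corrected FPKM of Syngr3, Syt17, Vamp2, Cplx2, Syt11 and Slc17a6 in each library (points) with the mean and SD of each group of 3 (bars), from 0 on a linear axis. Syngr3 and Syt17 are lower in every cKO library of both sexes, Vamp2 in females alone and Cplx2 in males alone, while Syt11 is higher in cKO females and Slc17a6 in cKO females 2 and 3.

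The female result turned on 1 library. Without cKO female 1, the deepest of its group, 8 of the 40 genes (20%) passed the test in females against 0 with it, 2 higher and 6 lower. Of all genes tested in that fit, 5690 (38.1%) passed, 22% higher and 16.1% lower. Syt12 (-0.79 ± 0.12, limma adjusted p = 0.00091), Syt17 (-1.17 ± 0.25), Vamp2 (-0.66 ± 0.18), Scamp5 (-0.24 ± 0.07), Rab3b (-0.998 ± 0.316) and Syngr3 (-0.33 ± 0.11) were then lower in the other 2 cKO females, and Slc17a6 (0.84 ± 0.22) and Syt5 (0.23 ± 0.08) higher. These 2 libraries carry the highest background of the 12, at 1.98 and 2.26 FPKM, and medians of 12.6% and 11.3% of the 40 genes' FPKM in transcripts that are not protein-coding, against 3.52% in cKO female 1. Their part in the calls was not tested. A fit without these 2 libraries leaves 1 cKO female library, so its calls cannot be set against those above. On deposited FPKM with neither correction nor rescaling, 7 of the 40 (17.5%) passed with all libraries, all lower in cKO females (Vamp2, Cplx2, Napb, Rab3a, Scamp5, Sv2b and Slc17a7), at a median log2 difference of -0.32 for the 40 genes. At that setting 22.7% of all genes were called higher and 1.4% lower, at a median of 0.88.

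The rest of the vesicle cycle gave no call either. Of 73 other genes of release, vesicle membrane, proton pump and endocytosis, 67 were tested and none passed in either sex (9 in females and 4 in males at an unadjusted p under 0.05, limma), with a median log2 difference of -0.05 in females and -0.02 in males. Of all 15098 genes tested, 4401 in females and 352 in males had an unadjusted p under 0.05. Syt6, Syt9, Syn3, Syngr2, Scamp4 and Slc17a8 were too low to be tested. Syt10, a synaptotagmin known from IGF-1 secretion in the olfactory bulb, was above its controls in every cKO library of both sexes. It had 8.03, 8.3 and 14.2 corrected FPKM in cKO females, against 7.0, 6.0 and 6.45 in control females, and 8.36, 8.93 and 7.24 in cKO males, against 6.52, 5.31 and 5.62 in control males. Its log2 differences were 0.57 ± 0.19 (adjusted p = 0.12) and 0.46 ± 0.19 (adjusted p = 1.0). Syt14 had the next smallest p among higher values in females, with 4.44, 4.24 and 5.75 in cKO females, against 3.98, 3.65 and 3.54 in control females (0.32 ± 0.13, adjusted p = 0.14).

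In the other direction, Slc32a1, the vesicular GABA transporter, had 2.73, 0 and 0 corrected FPKM in cKO females and 4.13, 2.89 and 2.63 in control females. The values of 0 are those of cKO females 2 and 3, where background exceeded the gene, and no fold is given. Atp6v0b, a subunit of the vesicular proton pump, had 9.36, 8.07 and 10.4 in cKO females, below the 12.4, 11.96 and 11.8 of control females, and 12.4, 14.7 and 13.8 in cKO males, above the 11.4, 11.1 and 11.3 of control males. In both sexes these libraries did not overlap, and no adjusted p passed (0.12 in females and 1.0 in males). Among lower values in males, Pacsin1 (syndapin 1) and Cplx1 (complexin 1) had the lowest p-values, both with an adjusted p of 1.0. Pacsin1 had 7.51, 5.9 and 5.86 in cKO males, against 14.1, 8.44 and 7.1 in control males, and Cplx1 41.8, 44.1 and 41.1 against 55.2, 45.7 and 49.7.

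Between the sexes, genes of this group did pass the test. On corrected FPKM, 9 of the 40 (22.5%) were higher in control females than in control males and 0 were lower (limma, adjusted p under 0.05), where 5.24% of all genes tested were higher and 6.62% lower. The 9 were Scamp5, Syp, Syngr1, Syngr3 and Sv2a of the vesicle membrane, Syt13, Napa, and the endocytosis genes Dnm1 and Amph. The median log2 difference, females over males, was 0.34 for the 40 genes and 0.07 for all genes on corrected FPKM, but -0.22 for the 40 and 0.32 for all genes with background left in and median-of-ratios scaling, where 0 of the 40 were called. At that setting 0.264% of all genes were called. Without scaling of the corrected values, 0 of the 40 were called at a median of 0.35, where 0.0947% of all genes were called. Without control male 3, 4 of the 40 were called (Amph, Napa, Scamp5 and Syp), where 3.58% of all genes were called. Since background separates the sexes in these libraries, its part in the difference cannot be told apart from that of sex. Libraries of control females lay above all those of control males for 21 of the 40 genes and below them for 0, where the shares of all genes were 27.5% and 21%.

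The same contrast in the cKO libraries was added after the control result was seen, and shares no library with it, though both come from the same fit. There, 17 of the 40 (42.5%) were higher in cKO females than in cKO males and 0 were lower, where 21.7% of all genes tested were higher and 16.5% lower. The 17 included all 9 genes called in the controls. The other 8 were Sv2c, Slc17a7, Syt2, Syt11, Snap25, Rab3a, Rab3c and Snap91. The median log2 difference was 0.39 for the 40 genes and 0.03 for all genes. Here too the direction turned with the scaling: with background left in and median-of-ratios scaling, 1 of the 40 was called higher and 27 lower, where 42.8% of all genes were called higher and 24.1% lower, at a median of -0.95 for the 40 and 0.53 for all genes. Without cKO females 2 and 3, which leaves 1 library in the group, the median for the 40 was 0.34. Without cKO female 2, cKO male 1 or cKO male 3 alone, 11, 11 and 10 of the 40 were called. The shares of all genes called in these fits were 20.2%, 16.2% and 12.9%. Without overlap, 25 of the 40 were higher and 0 lower in cKO females, where the shares of all genes were 23% and 18.9%.

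**Figure D4:**
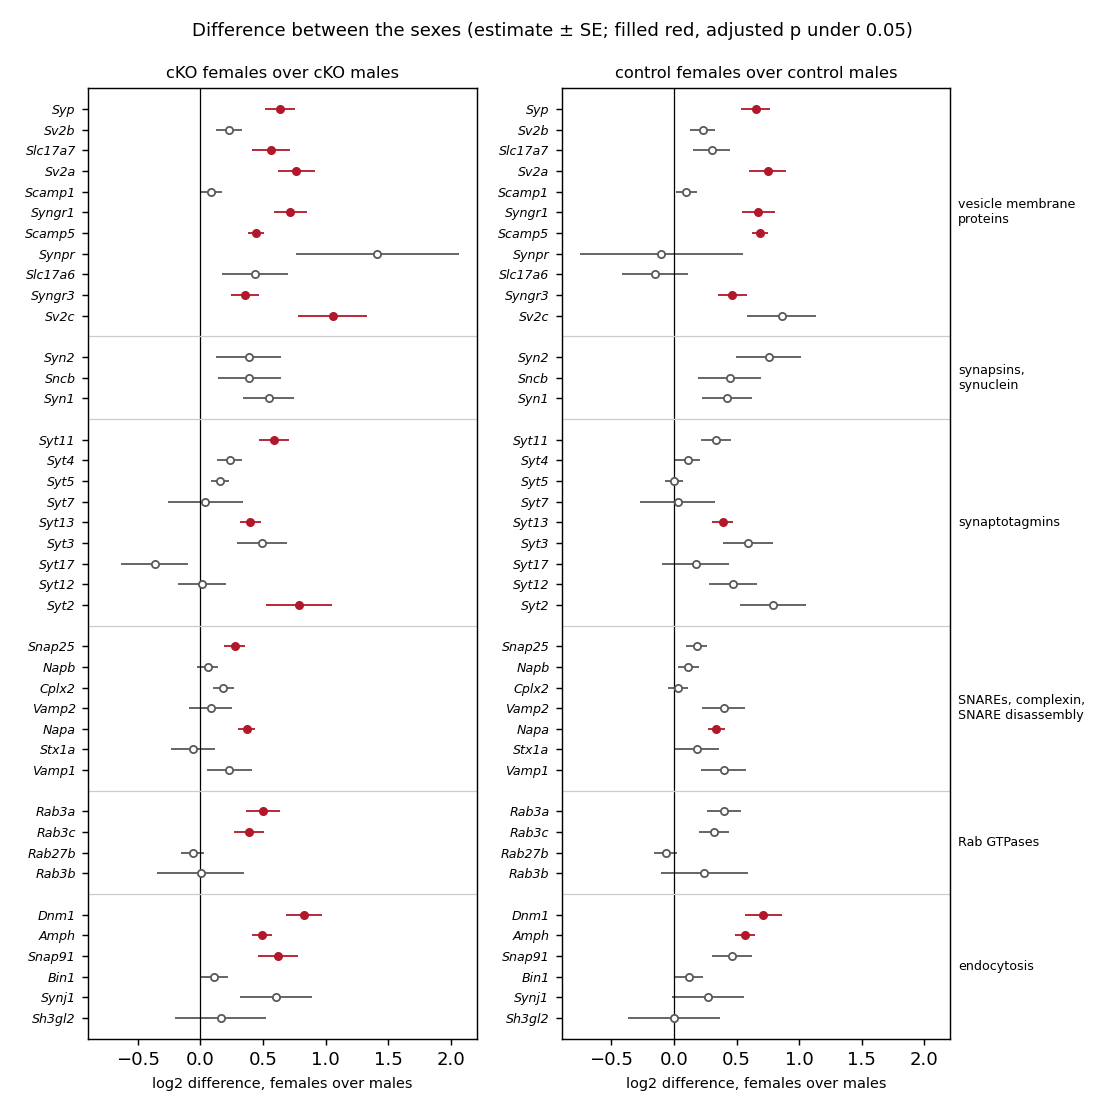
Log2 difference of females over males (point) with its SE (bar) for the 40 genes on corrected FPKM, cKO libraries in the left panel and control libraries in the right; filled red points passed the test. The 9 genes called in controls are also called in cKO libraries, and no gene is called lower in females in either panel; with background left in and median-of-ratios scaling many directions turn, as given in the text.

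Scamp5 had the smallest p in both genotypes. Its values in cKO libraries, given above, did not overlap between the sexes, with a log2 difference of 0.44 ± 0.07 (adjusted p = 0.0035). It had 26.2, 23.6 and 26.8 corrected FPKM in control females, against 15.7, 15.9 and 15.3 in control males, a log2 difference of 0.69 ± 0.07 (adjusted p = 0.001). Syp, which lies on the X chromosome (ENSMUSG00000031144, chromosome X, 7638471 to 7653256), differed by 0.63 ± 0.12 in cKO libraries (adjusted p = 0.0063) and by 0.65 ± 0.12 in control libraries (adjusted p = 0.0086). The other X-linked gene of the 40, Syn1, did not pass, at 0.55 ± 0.20 in cKO and 0.42 ± 0.20 in control libraries (adjusted p = 0.053 and 0.21).

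Sv2a (ENSMUSG00000038486, chromosome 3, 96181151 to 96195521), the glycoprotein that binds the antiepileptic levetiracetam, showed the largest difference among the 9 genes in controls. It had 41.6, 49.4 and 46.1 corrected FPKM in cKO females, against 22.7, 33.3 and 24.9 in cKO males, and 49.98, 41.2 and 42.8 in control females, against 30.5, 24.8 and 23.95 in control males. The log2 differences were 0.77 ± 0.15 and 0.75 ± 0.15, and cKO male 2 and control male 1 came closest to the females. Syngr1 had 29.2, 33.3 and 31.3 in cKO females, against 16.6, 23.3 and 17.1 in cKO males, and 33.02, 28.2 and 32.3 in control females, against 21.9, 17.7 and 18.6 in control males. Its log2 differences were 0.72 ± 0.13 and 0.67 ± 0.13. For Syngr3 they were 0.36 ± 0.11 and 0.47 ± 0.11.

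Dnm1 (ENSMUSG00000026825, chromosome 2, 32308471 to 32353338) had 52.4, 63.2 and 54.6 corrected FPKM in cKO females, against 33.1, 33.05 and 28.8 in cKO males, and 71.5, 51.1 and 56.5 in control females, against 42.6, 34.95 and 30.9 in control males. The log2 differences were 0.83 ± 0.15 and 0.71 ± 0.15, with adjusted p-values of 0.005 and 0.013. Amph, whose libraries are given above, differed by 0.50 ± 0.08 in cKO and 0.56 ± 0.08 in control libraries (adjusted p = 0.0043 and 0.0033). On corrected FPKM, every female library of either genotype lay above every male library for Amph, Syp, Sv2a, Syngr1 and Dnm1. Snap91 differed by 0.62 ± 0.16 in cKO libraries, with 20.5, 26.8 and 20.9 in cKO females against 14.98, 17.99 and 11.4 in cKO males, and by 0.46 ± 0.16 in controls, with 19.8, 18.7 and 20.8 in control females against 13.6, 16.2 and 12.9 in control males (adjusted p = 0.089).

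Napa had narrow groups. It had 20.98, 22.3 and 23.9 corrected FPKM in cKO females, against 17.5, 16.9 and 17.2 in cKO males, and 21.5, 23.5 and 21.5 in control females, against 17.1, 17.3 and 17.7 in control males. The log2 differences were 0.37 ± 0.07 and 0.34 ± 0.07. Its paralog Napb did not pass, at 0.06 ± 0.08 and 0.12 ± 0.08. Snap25 passed in cKO libraries at 0.27 ± 0.08 (adjusted p = 0.028) and not in controls at 0.18 ± 0.08 (adjusted p = 0.20). The difference between these sex effects equals the female minus the male effect of the knockout, 0.09 ± 0.12 for Snap25 (adjusted p = 0.73).

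Syt13, a synaptotagmin without calcium binding, had 23.1, 19.9 and 24.6 in cKO females, against 16.1, 18.2 and 16.5 in cKO males, and 21.3, 20.7 and 21.5 in control females, against 16.3, 16.1 and 15.7 in control males. Its log2 differences were 0.40 ± 0.08 and 0.39 ± 0.08. Syt2 had 1.38, 3.6 and 2.69 in cKO females, against 1.07, 1.21 and 1.27 in cKO males, and 2.95, 2.71 and 2.51 in control females, against 1.81, 1.07 and 1.29 in control males. Of the 17, Syt2 was the least steady, losing its call in 9 of the 12 fits that left out 1 library. In cKO female 3, Syt2 at 2.69 and Sv2c at 3.04 corrected FPKM are low beside the background subtracted there, 2.26 FPKM before scaling. Syt11, Sv2c, Slc17a7, Rab3a and Rab3c differed by 0.59, 1.06, 0.57, 0.50 and 0.38 in cKO libraries and by 0.33, 0.86, 0.30, 0.40 and 0.32 in controls, where none passed. Syt5, Syt7 and Cplx2 had differences near 0 between control females and control males, at 0.00, 0.03 and 0.03.

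**Figure D5:**
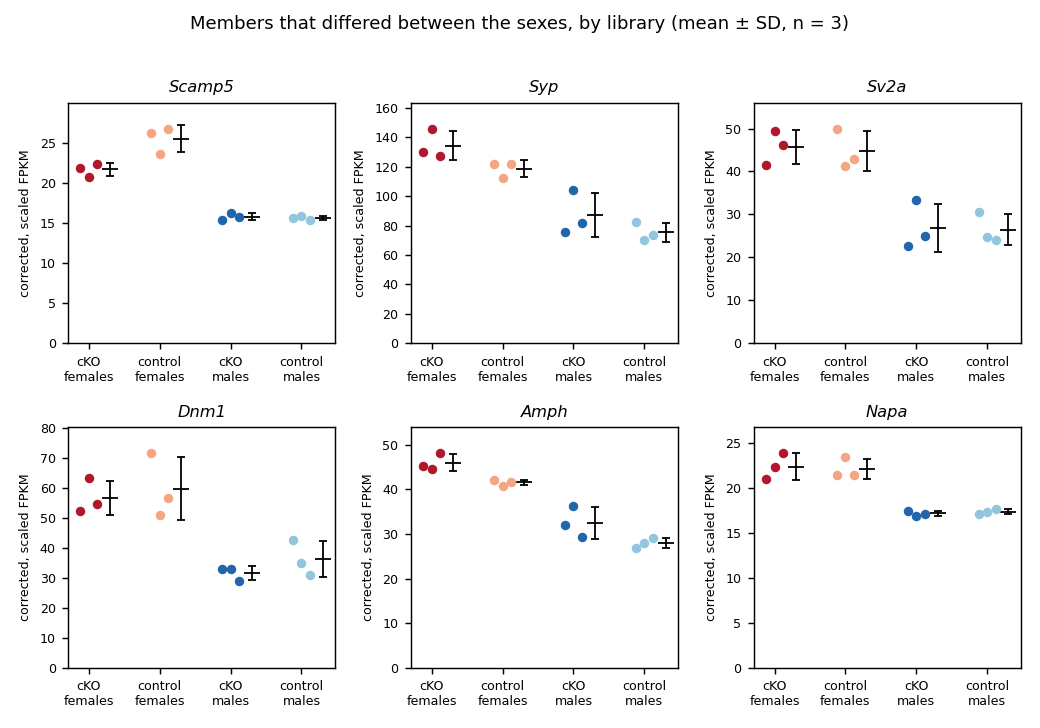
Corrected FPKM of Scamp5, Syp, Sv2a, Dnm1, Amph and Napa in each library (points) with the mean and SD of each group of 3 (bars), from 0 on a linear axis. On this scale the female libraries of both genotypes lie above the male libraries for these 6 genes, and in Scamp5 the cKO females lie between control females and the males.

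Markers of glia and neurons differed in the same contrast. Between control females and control males, 5.24% of all genes tested were higher and 6.62% lower in females. Summed corrected FPKM of 8 oligodendrocyte markers was 292 to 409.8 in control females, against 553 to 703 in control males, with 2 of 8 called lower (Mbp and Mobp) and all 8 values below 0. The sum of 8 astrocyte markers was 424 to 459 in control females, against 604 to 683 in control males, with 4 of 8 called lower (Gfap, Aldoc, Aqp4 and S1pr1). The 12 markers of hippocampal principal neurons summed to 247 to 264 in control females, against 182 to 200.2 in control males, with 2 called higher (Wfs1 and Prox1). Of 8 interneuron markers 2 were called higher (Gad1 and Gad2), and the sums overlapped, at 181 to 218 in control females and 136 to 182 in control males. The endothelial and mural sums overlapped, at 45.5 to 47.2 in control females and 42.03 to 50.1 in control males. Choroid plexus markers summed to 26.7 to 5373 in control females and 1292 to 3734 in control males, and thalamus and habenula markers to 21.99 to 31.6 and 31.3 to 34.2. Neocortex markers summed to 14.9 to 21.8 in control females and 15.8 to 22.3 in control males, with none of these 3 lists called.

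In cKO libraries, oligodendrocyte markers summed to 272 to 359.5 in females, against 417 to 789 in males, and astrocyte markers to 406 to 456 against 526 to 587, with 4 and 5 of 8 called lower, where 16.5% of all genes tested were lower. Principal neuron markers summed to 232 to 277 in cKO females, against 185 to 215 in cKO males, with 4 of 12 called higher, where 21.7% of all genes were higher. Of the interneuron markers, 4 of 8 were called higher and 1 lower. Between cKO and control libraries of 1 sex, no marker of these lists was called. The 40 vesicle genes together summed to 1391 to 1445 in cKO females, against 1056 to 1181 in cKO males, and to 1319 to 1475 in control females, against 1128 to 1157 in control males. The part of these markers in the sex difference was not tested. In bulk tissue, fewer cells of a type and less RNA per cell cannot be told apart.

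Other genes of the vesicle cycle were called in both directions in this contrast. Of the 67 tested, 10 (14.9%) were higher and 3 (4.48%) lower in control females than in control males, where 5.24% of all genes tested were higher and 6.62% lower. The higher genes included Nsf, the ATPase that takes SNARE complexes apart, with 91.7, 84.6 and 95.2 corrected FPKM in control females, against 50.7, 50.2 and 50.9 in control males (0.83 ± 0.11, adjusted p = 0.003). Syt1, the main calcium sensor of fast release, had 146, 120.5 and 138 against 90.2, 81.2 and 81.8 (0.67 ± 0.12, adjusted p = 0.0077). The clathrin heavy chain Cltc and the AP-2 subunits Ap2a1, Ap2a2 and Ap2b1 were higher by 0.35, 0.53, 0.37 and 0.68 on the log2 scale. Stxbp5 (tomosyn), Svop and the pump subunits Atp6v0a1 and Atp6v1b2 completed the 10. The 3 lower genes were Snap23, the SNARE used for secretion outside neurons (-0.50 ± 0.12), and the pump subunits Atp6v1f (-0.37 ± 0.09) and Atp6v1g1 (-0.60 ± 0.11). In cKO libraries 17 of the 67 (25.4%) were higher in females and 5 (7.46%) lower, where the shares of all genes were 21.7% and 16.5%. With background left in and median-of-ratios scaling, all 73 were tested there. Of these, 2 were higher and 51 lower, where 42.8% of all genes were higher and 24.1% lower.

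Since 9 of the 40 were called in 1 direction between the sexes, the promoter windows of 3 of them that differ in their motifs are shown. RefSeq windows (GRCm38.p6, 250 bases before to 50 after the transcription start) matched 29 of the 40 genes, with 39 windows in all. Capitals mark the letters searched on either strand. The GC box was searched as GGGCGG, and the CCAAT box by the letters of its name. The TATA box was searched as TATAAA, and the cAMP response element as TGACGTCA. The last motif was TTCAGCACC, the left part of the RE1 element bound by the neuronal repressor REST. Sequences run 5′ to 3′ on the strand of the gene.
Scamp5, chr9:57468011-57468310, minus strand: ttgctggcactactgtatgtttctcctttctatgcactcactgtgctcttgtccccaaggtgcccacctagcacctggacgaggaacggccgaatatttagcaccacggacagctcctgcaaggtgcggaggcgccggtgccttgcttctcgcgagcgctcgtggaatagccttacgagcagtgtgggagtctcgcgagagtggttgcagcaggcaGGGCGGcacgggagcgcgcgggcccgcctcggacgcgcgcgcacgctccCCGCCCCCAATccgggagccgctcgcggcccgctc
Syp, chrX:7638330-7638629, plus strand: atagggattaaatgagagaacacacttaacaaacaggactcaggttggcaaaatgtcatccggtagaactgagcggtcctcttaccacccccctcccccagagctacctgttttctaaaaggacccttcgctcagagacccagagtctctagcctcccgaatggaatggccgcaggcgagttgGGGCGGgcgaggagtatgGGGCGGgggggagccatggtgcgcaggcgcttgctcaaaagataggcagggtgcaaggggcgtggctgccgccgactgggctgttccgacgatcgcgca
Napa, chr7:16098330-16098629, plus strand: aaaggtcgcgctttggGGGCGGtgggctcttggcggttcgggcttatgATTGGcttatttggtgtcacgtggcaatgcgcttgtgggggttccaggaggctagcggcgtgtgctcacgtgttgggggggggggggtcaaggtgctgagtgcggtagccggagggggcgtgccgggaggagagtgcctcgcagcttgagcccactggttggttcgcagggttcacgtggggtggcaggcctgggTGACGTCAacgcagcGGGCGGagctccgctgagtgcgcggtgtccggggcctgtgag
In Scamp5 a GC box and a CCAAT box adjoin without overlap. Of the 39 windows, 25 (64.1%) held a GC box, against 35.7% of 32841 RefSeq windows. A TATA box was in 7.69% of the 39 windows and in 13.6% of all, and a CCAAT box in 23.1% and 37.4%. The cAMP response element was found in 3 windows (Napa, Sh3gl2 and Syn1; 7.69%), against 1.79% of all windows. The left part of RE1 was found in 1 (Syn1; 2.56%), against 0.371%. The windows held a median of 17 CpG dinucleotides, against 7 over all windows, and a match is no more than a run of letters. Of the 9 genes higher in control females, 7 had a window, 6 of them with a GC box and none with a TATA box.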

How the data were processed

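RNA-seq of total RNA after ribosomal RNA removal was measured in 12 libraries, 3 in each of 4 groups. The authors aligned reads with HISAT2 2.0.4 and assembled them with StringTie on GRCm38.p6, per the submitters' processing notes; trimming, strand use and the annotation release are not given in the sources used here. Per the file headers, the deposited tables give FPKM and mean coverage for each of 137862 transcripts in each library. Depth is the amount of mapped bases implied by the ratio of coverage to FPKM, from its median over well-covered transcripts of a library.

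For each gene, bases were divided by the union of its listed exons and put on the FPKM scale. The median of 1415 olfactory and vomeronasal receptor genes was subtracted, with a floor at 0, and libraries were scaled by median of ratios over coding genes whose mean reached 5. Genes with mean 1 or more, and 1 or more in 3 libraries, were kept (15098). Differences on log2(value + 0.5) were tested with limma 3.58.1 (trend, robust; R 4.3.3), with 4 group means and Benjamini-Hochberg adjustment over all kept genes, and the script was tested on simulated data. Fold changes on this scale understate those of low genes.

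The 40 genes, the lists and the tests were chosen with earlier results of these data known. Values in every library are given for the 4 lowest p-values per direction and sex, genes that passed a test, genes without overlap in both sexes, the highest and lowest gene of each role, and 6 paralog sets, and for 2 genes per direction and sex of the other vesicle genes. Alternatives changed the correction, scaling, pseudocount (0.1 and 1), filter, libraries and replicate block.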

Additional observations from a re-analysis of the deposited data

Results flagged for a closer look

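One gene of the vesicle cycle had libraries that moved in opposite directions in the 2 sexes. Atp6v0b, a subunit of the vesicular proton pump, had 9.36, 8.07 and 10.4 corrected FPKM in cKO females, against 12.4, 12.0 and 11.8 in control females. It had 12.4, 14.7 and 13.8 in cKO males, against 11.4, 11.1 and 11.3 in control males. The female minus the male effect was -0.63 on the log2 scale, and limma gave an adjusted p of 0.59, so the difference did not pass. Of all genes tested, 0.126% were lower in every cKO female and higher in every cKO male. Groups of 3 libraries are too small for a check of outlying samples.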

How the results depend on the processing

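Between cKO and control females, the count of the 40 genes called was 0, and 7 on deposited FPKM without rescaling, where 24.1% of all genes were called. Of the other vesicle genes, of which 65 to 73 were tested by setting, 12 were called there. Leaving out 1 library gave 0 to 8 of the 40 and 0 to 16 of the others, where 0.00663% to 38.1% of all genes were called. The median log2 difference of the 40 was -1.03 with background left in and median-of-ratios scaling, -0.32 on deposited FPKM and -0.55 without scaling, and -0.10 to -0.00013 with 1 library left out. In males, 0 of the 40 were called in every alternative run, where 0% to 0.0367% of all genes were called. The median was -0.30 with background left in, and -0.13 to -0.03 with 1 library left out. Over both sexes, leaving out 1 library gave 0 to 4 of the 40 and 0 to 8 of the others, where 0.0198% to 29.4% of all genes were called. For the female minus the male effect it gave 0 to 1 of the 40, where 0% to 19.1% of all genes were called. The counts of 4 and 1 came from the fit without cKO female 1. Atrx kept its direction and its exact permutation p of 0.005, at -17.4 to -15.4 FPKM with 1 library left out and -4.27 corrected FPKM.

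Between control females and males, the count of 9 became 0 with background left in, 2 on deposited FPKM, 15 with quantile normalization and 0 without scaling. The shares of all genes called at these settings were 0.264%, 0.786%, 9.71% and 0.0947%. With 1 library left out the count was 4 to 12, where 3.58% to 18.7% of all genes were called. The 13 calls among the other vesicle genes became 0 with background left in, 3 on deposited FPKM, 7 with no filter, 0 without scaling, and 6 to 13 with 1 library left out. With no filter, 1.4% of all genes were called. Between cKO females and males, the count of 17 became 28 with background left in, 8 on deposited FPKM and 0 without scaling. The shares of all genes called at these settings were 66.9%, 73% and 36%. With 1 library left out the count was 10 to 19, where 12.9% to 54.4% of all genes were called. Fits without cKO females 2 and 3, and without these and control female 3 (a set added after seeing the data), leave 1 cKO female library. A count of calls there is not comparable. The 22 calls among the others became 53 with background left in, 27 on deposited FPKM, 9 without scaling, and 11 to 33 with 1 library left out.

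Directions reversed as follows, and the cause was not tested. In females, with background left in, cKO against control was -0.87 for Syt11, -0.85 for Syt5, -0.32 for Slc17a6 and -0.99 for Amph. On deposited FPKM it was -0.15 for Syt11, -0.13 for Syt5 and -0.27 for Amph, and without scaling -0.20, -0.31 and -0.36 for these genes. Slc17a6 was -0.080 without cKO females 2 and 3 and -0.24 without these and control female 3. In males, with background left in, Amph was -0.037, Syp -0.059, Syt13 -0.18 and Syt3 -0.024; Syt3 ran from -0.0043 to 0.34 with 1 library left out. Control females over control males, with background left in, was -0.016 for Amph, -0.065 for Dnm1, -0.27 for Napa, -0.072 for Syngr3 and -0.22 for Syt13. For cKO females over cKO males it was -0.97 for Amph, -0.65 for Dnm1, -1.04 for Napa, -1.02 for Rab3a, -1.06 for Rab3c, -1.04 for Scamp5, -0.95 for Slc17a7, -1.34 for Snap25, -0.86 for Snap91, -0.70 for Sv2a, -0.80 for Syngr1, -0.74 for Syngr3, -0.97 for Syp, -0.95 for Syt11 and -1.04 for Syt13. Without scaling, that contrast was -0.093 for Napa, -0.083 for Rab3c, -0.018 for Scamp5, -0.20 for Snap25, -0.078 for Syngr3 and -0.062 for Syt13, and on deposited FPKM it was -0.20 for Snap25.

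Between cKO and control libraries of 1 sex, samples with the same number did not all deviate together (r = 0.15, -0.30 and 0.38 in females, 0.04, -0.10 and 0.20 in males), nor did they between the sexes of 1 genotype (r = 0.32, 0.37 and -0.29 in cKO, 0.12, 0.07 and -0.02 in controls), so the numbers were not taken to pair them. With the replicate block within sex, 4 of the 40 and 6 of the 67 were called between control females and males, where 5.35% of all genes were called. Between cKO females and males, 15 of the 40 and 31.4% of all genes were called. The comparisons of cKO with control gave 0 of the 40 and 0% of all genes. With a replicate block shared by the sexes of a genotype, added after seeing the data, 7 of the 40 were called between control females and males. Between cKO females and males, 19 were called. The shares of all genes called there were 8.13% and 34.9%. A fit on 1 sex cannot give the comparison of the sexes. Over all alternatives of the genes named, 771 values stayed on their side of the threshold, 143 lost a call, 8 gained one and 44 reversed. Genes below about 2 FPKM in cKO females 2 and 3 lie under the background subtracted there, which limits at least Syt17, Syt12, Rab3b and Slc32a1. That background is given before scaling, which raised the values of these libraries. Cplx2, with 1 listed transcript, went from 79.4 deposited to 117 corrected FPKM in cKO female 2. On the corrected scale the limit is therefore higher, and low values of Sh3gl2, Synpr, Vamp1, Syt2 and Sv2c there may lie under it too.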
